A study of Mus musculus with 6 samples.

Results

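The genes described here encode the constitutive proteasome, with its activators, its inhibitor and its assembly chaperones. They were chosen by gene symbol in the annotation of the array, as every symbol that starts with Psm, a letter from a to g and a number, apart from the inducible subunit genes Psmb8, Psmb9 and Psmb10. The pattern took 47 symbols, of which 46 had a probe set annotated to that gene alone, out of 22180 genes with such a probe set. Psma4 had none, and 2 of the 46, Psmc3ip and Psme3ip1, do not encode proteasome proteins although their symbols match. That leaves 44 proteasome genes, read at 1 probe set each, the one with the highest mean over the 6 arrays. RNA came from RAW 264.7 cells, a mouse macrophage-like line, collected 48 h after transfection with 50 nM of a GapmeR, an antisense oligonucleotide with locked nucleic acid ends that makes RNase H cut the RNA it pairs with. In 3 samples the GapmeR targeted Mist, a long noncoding RNA of macrophages (Mist-targeted), and in 3 it was non-targeting (Control). The labels name 1 GapmeR per group and no untransfected cells, so effects of that oligonucleotide and of its target cannot be told apart. In bulk RNA, likewise, a change in some of the cells and a smaller one in all of them cannot be told apart.

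The proteasome is the protease that degrades most ubiquitin-tagged proteins of the cytosol and nucleus. Its barrel-shaped 20S core is built from outer rings of alpha subunits, which gate the entrance, and inner rings of beta subunits, of which Psmb5, Psmb6 and Psmb7 encode those that cut proteins. A 19S cap of ATPases and other subunits binds ubiquitin chains, unfolds the substrate and feeds it into the core, and other activators can take its place. In macrophages interferon induces a second set of cutting subunits that replaces the constitutive set in newly made cores and alters the peptides available to MHC class I. When proteasome activity falls short, the transcription factor encoded by Nfe2l1 is known to raise the genes of core and cap together.

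Values are log2 expression, so a difference of 1 is a doubling, and all differences are Mist-targeted minus Control. The arrays had medians between 4.47 and 4.50, with correlations of 0.988 to 0.991 within groups and 0.986 to 0.989 between groups. The identity of the cells was checked on defining macrophage genes, of which 8 of 9 measured, all but Cd86, lay above every array's median on all 6 arrays; 1 of the 9, Fcgr1, passed the test between the groups. Markers of T cells, B cells and neutrophils did so in 0 of 5, 0 of 3 and 0 of 4 cases, and those of fibroblasts in 1 of 4, Col1a1 at 4.62. Mist has no probe set in the annotation used here, so its level is not analysed here and its reduction was not checked. The labels do not say whether replicates were cultured separately, and the p values may therefore reflect technical spread alone.

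None of the 46 genes passed the test between Mist-targeted and Control cells. At an adjusted p under 0.05 (limma over all 41345 probe sets, Benjamini-Hochberg) 0 of 46 were called, against 0.415% of all 22180 genes and 0.254% of all probe sets, and the lowest adjusted p among them was 0.38. The background itself rests on every array: the 105 probe sets called became between 2 and 40 when single arrays were left out, and 0 with the replicate number as a block. Tested among probe sets with a listed gene alone, 0 of 46 were called as well, against 2.90% of genes. At an unadjusted p under 0.05 there were 6 of 46 (13.0%), against 11.0% of all genes and 21.2% of the 3470 genes with a mean log2 value over 8. The 6 were 4 with a positive difference, against 5.24% of all genes, and 2 with a negative one, against 5.79%. That number was 2 without any one of the Control arrays, and 5, 5 and 3 without Mist-targeted replicates 1, 2 and 3. The differences were small: they ran from -0.30 for Psmd10 to 0.28 for Psmc3ip, and none reached 1.5-fold, the largest being 1.23-fold. The 95% intervals of all 46 lay between -0.67, the lower bound for Psme2, and 0.57, the upper bound for Psmd3.

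Most differences were nonetheless positive. Of the 46 genes 37 were positive (80.4%), against 52.2% of all genes and 55.2% of genes with a mean over 8. The median difference was 0.098, against 0.0069 over all genes and 0.018 over those with a mean above 8. Each array was also set against the mean of the Control arrays: the median over the 46 genes was 0.086, 0.090 and 0.111 on Mist-targeted replicates 1, 2 and 3, and 0.0023, -0.020 and -0.0029 on Control replicates 1, 2 and 3. All Mist-targeted arrays thus lay above all Control arrays in this median. The same order held over all genes with a mean log2 value over 8, at smaller values. Their medians were 0.0049, 0.018 and 0.032 on the Mist-targeted arrays, against -0.0064, 0.0007 and 0.0039 on the Control arrays. The Mist-targeted arrays were all higher than the Control arrays for 14 genes (30.4%), against 9.99% of all genes, and all lower for 4 (8.70%), against 9.97%. Among genes with a mean log2 value over 8, where 34 of the members lie, the corresponding shares of all 3470 such genes were 20.7% and 18.9%, and those of the 34 members 35.3% and 8.82%. Genes read on the same arrays are not independent, so these counts describe the 6 arrays and carry no test.

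**Figure D1:**
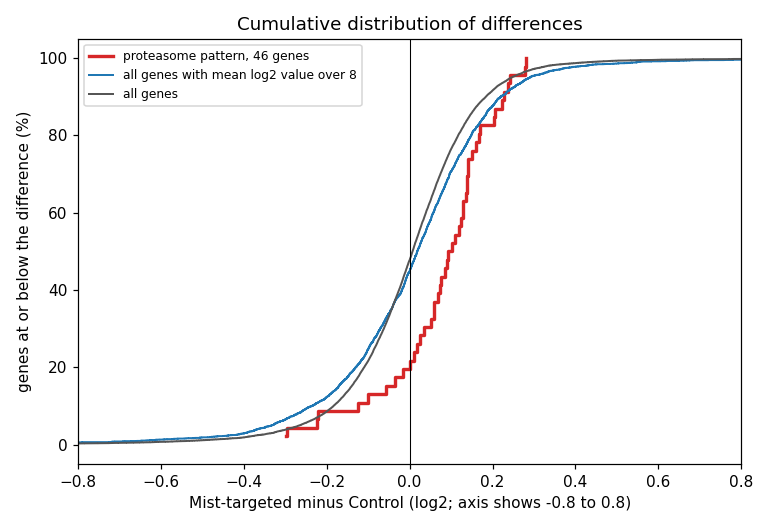
Cumulative share of genes (vertical axis, percent) at or below each log2 difference of Mist-targeted minus Control (horizontal axis), for the 46 genes of the proteasome pattern (red), all genes with a mean log2 value over 8 (blue) and all genes (grey). The red curve crosses 50% near its median of 0.098, to the right of the other curves, and stays within -0.30 and 0.28.

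**Figure D2:**
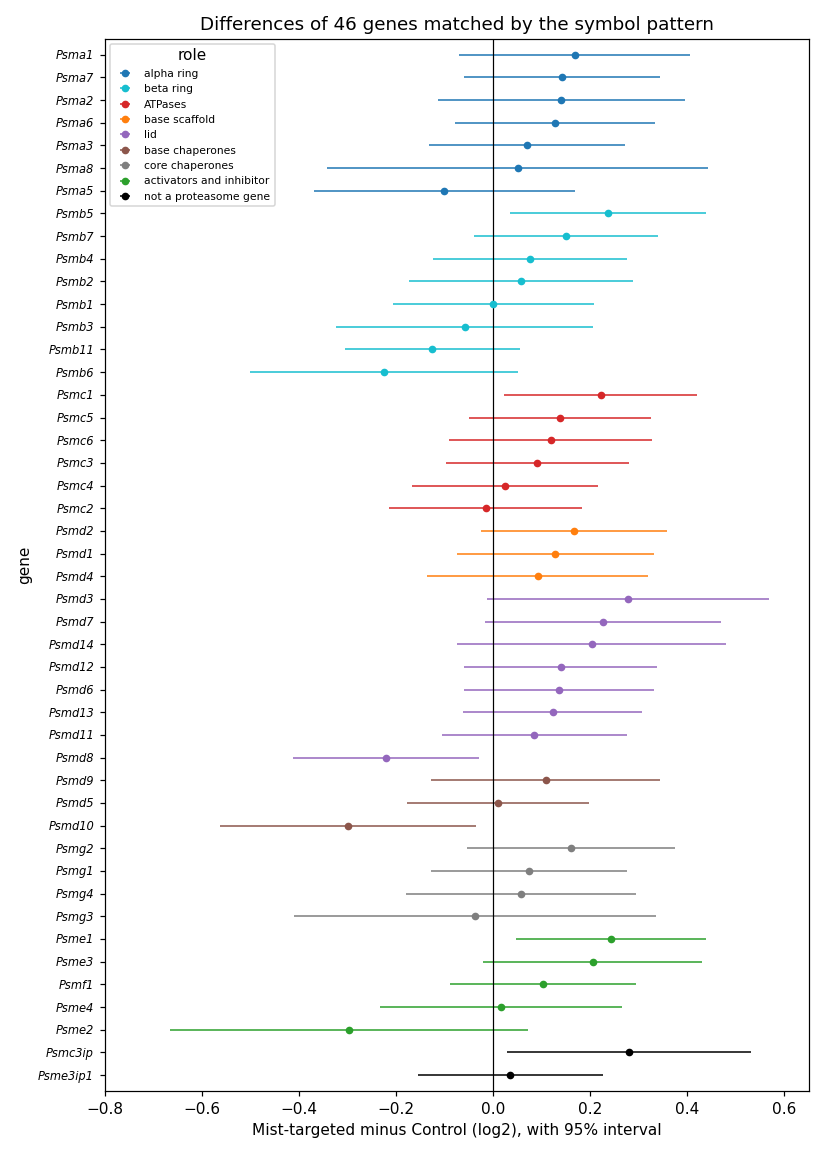
Difference of Mist-targeted minus Control (log2, horizontal axis) for each of the 46 genes with its 95% interval from limma (n = 3 per group), coloured by role and sorted within roles. Intervals of 6 genes leave out 0 before adjustment for multiple tests, those of Psmb5, Psmc1, Psme1 and Psmc3ip to the right and those of Psmd8 and Psmd10 to the left.

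The alpha ring subunits, which form the outer rings of the core, had 6 positive and 1 negative differences among 7 measured genes, with a median of 0.13. That median was 0.095 without Control replicate 2 and 0.099 without Mist-targeted replicate 2. Psma1 had the highest difference of the alpha ring genes. It measured 10.32, 10.13 and 10.20 on the Mist-targeted arrays, against 10.10, 9.90 and 10.15 on the Control arrays, a difference of 0.17 ± 0.10 (SE, n = 3 per group; limma, adjusted p = 0.68). The groups overlap, since Mist-targeted replicate 2 lies below Control replicate 3. Psma7, at 0.14, was the 1 alpha subunit gene of 7 (14.3%) whose groups did not overlap. Of all genes, 9.99% were likewise higher on every Mist-targeted array. Psma2 and Psma6 differed by 0.14 and 0.13, and Psma3 by 0.069. Psma5 had the lowest difference, -0.10 ± 0.12 (limma, adjusted p = 0.87), from a dim probe set that read 4.32, 4.70 and 4.57 on Mist-targeted arrays and 4.57, 4.71 and 4.62 on Control arrays, close to the array medians. A second Psma5 probe set was dimmer still, so the level of this subunit is poorly measured here, and without Mist-targeted replicate 1 the difference was 0.0067. Psma8, an alpha subunit known from the testis, differed by 0.051 with the largest SE of all members, 0.17; subunit genes are related in sequence, and whether this probe set takes signal from other alpha subunits was not checked.

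The beta ring genes went in both directions, 5 positive and 3 negative of 8, with a median of 0.029. That median rests on single arrays: it was -0.034 without Mist-targeted replicate 3, 0.070 without Mist-targeted replicate 2, and between 0.019 and 0.041 without each of the others. The genes of the 3 cutting subunits show this split. Psmb5 encodes the chymotrypsin-like subunit, the main target of proteasome inhibitor drugs. It measured 9.26, 9.33 and 9.40 on the Mist-targeted arrays, against 9.02, 9.17 and 9.09 on the Control arrays. All Mist-targeted values lie above all Control values, by 0.24 ± 0.086 on average (SE; 1.18-fold; limma, adjusted p = 0.42, 95% interval before adjustment 0.035 to 0.44). Psmb7, the trypsin-like subunit, measured 9.64, 9.63 and 9.73 in Mist-targeted cells, against 9.58, 9.50 and 9.47 in Control cells, again without overlap (0.15 ± 0.082; limma, adjusted p = 0.64). Psmb6, the caspase-like subunit, went the other way, with 8.43, 8.82 and 8.79 in Mist-targeted cells, against 8.89, 8.94 and 8.88 in Control cells. Its groups do not overlap either, at a difference of -0.22 ± 0.12 (limma, adjusted p = 0.63). Mist-targeted replicate 1 was far below the other arrays, and without it the difference was -0.10. The non-cutting beta subunits differed by little: Psmb1, Psmb2, Psmb3 and Psmb4 by 0.0003, 0.058, -0.058 and 0.076. Psmb11, a subunit of the thymus, differed by -0.13 at a level under every array's median (3.874 ± 0.034 on Mist-targeted and 3.999 ± 0.029 on Control arrays, SD, n = 3 each), where no measure of background was used. Without the dimmest 40% of probe sets, a setting that leaves out Psmb11, the median of the beta ring was 0.058.

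The start regions of Psmb5 and Psmb6 are shown because these genes of the same ring had differences of opposite sign while both windows hold the core of an antioxidant response element, a site of the kind that the factors encoded by Nfe2l1 and Nfe2l2 bind. The windows are RefSeq promoters of build GRCm38.p6, from 250 bases before to 50 bases after the start of the gene, 5′ to 3′ on the gene's strand. Psmb5 lies on the minus strand at chr14:54617946-54618245 and Psmb6 on the plus strand at chr11:70525107-70525406. Capitals mark the match to TGACNNNGC, where N is any base, and each window ends within the first codons of the gene.
Psmb5: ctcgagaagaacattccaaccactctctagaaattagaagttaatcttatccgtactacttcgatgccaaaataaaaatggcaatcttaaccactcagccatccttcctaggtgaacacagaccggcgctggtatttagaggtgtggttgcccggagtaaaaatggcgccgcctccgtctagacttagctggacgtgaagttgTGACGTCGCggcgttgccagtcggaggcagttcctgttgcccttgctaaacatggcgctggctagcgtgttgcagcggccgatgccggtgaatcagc
Psmb6: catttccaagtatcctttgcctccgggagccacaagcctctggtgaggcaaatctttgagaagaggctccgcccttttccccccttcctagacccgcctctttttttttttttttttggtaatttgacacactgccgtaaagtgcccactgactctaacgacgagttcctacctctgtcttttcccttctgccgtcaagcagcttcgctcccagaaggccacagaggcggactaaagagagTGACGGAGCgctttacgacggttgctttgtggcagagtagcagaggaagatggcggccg
The match starts 47 bases before the start of Psmb5 and 9 bases before that of Psmb6, each on the strand of the gene, and neither window holds a CCAAT box. A match to these letters is a description of the window and not a bound site.

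Windows were found for 39 of the 47 genes, 43 windows in all. On either strand, TGACNNNGC stood in 6 of the 43 (14.0%), against 12.4% of all 32851 windows, so its share is near that of promoters in general. The CCAAT box, searched as CCAAT on either strand, stood in 15 of the 43 (34.9%), against 37.4% of all windows. The other matches to TGACNNNGC were in the windows of Psmc6, Psmd9, Psmd12 and Psme4, shown with up to 10 flanking bases on the strand of the gene to let the sites be compared; those of Psmc6, Psmd12 and Psme4 match on the opposite strand. The matched bases are in capitals.
Psmc6: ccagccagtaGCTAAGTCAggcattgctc
Psmd9: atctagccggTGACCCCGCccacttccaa
Psmd12: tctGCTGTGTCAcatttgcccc
Psme4: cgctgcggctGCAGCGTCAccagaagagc
These sites lie on chromosomes 14, 5, 11 and 11 of GRCm38.p6 and start 227, 31, 247 and 7 bases before the gene. The median difference was 0.11 over the 6 genes with a match and 0.089 over the 32 measured genes with a window but no match, so the groups of genes had similar medians.

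The inducible subunits that take the places of these 3 cutting subunits were higher on every Mist-targeted array than on any Control array, as were 9.99% of all genes and 20.7% of those with a mean over 8, and none passed the test. Psmb10, with the smallest p, measured 9.24, 9.12 and 9.19 in Mist-targeted cells, against 8.67, 8.77 and 8.79 in Control cells (0.44 ± 0.084; limma, adjusted p = 0.11), and Psmb9 differed by 0.35 ± 0.11 and Psmb8 by 0.26 ± 0.091. Each was set against its constitutive counterpart within the same array, as a log2 ratio whose change does not depend on the overall scaling of the array. For Psmb9 over Psmb6 the ratio was -2.17, -2.39 and -2.16 on Mist-targeted arrays, against -2.78, -2.92 and -2.75 on Control arrays, a difference of 0.57. Psmb10 over Psmb7 gave -0.40, -0.51 and -0.53 on Mist-targeted arrays, against -0.91, -0.74 and -0.68 on Control arrays, a difference of 0.29. Both ratios separate the groups, with p = 0.10 in an exact two-sided permutation test, the smallest p that 3 against 3 arrays allow, and 0.15 adjusted over the 3 pairs. Psmb8 over Psmb5 overlapped, with means of -0.95 on Mist-targeted and -0.98 on Control arrays (difference 0.026; exact permutation p = 1.0), since both genes of that pair had positive differences of similar size. A ratio of probe sets shows unequal change only, and its level is not a ratio of transcripts.

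**Figure D3:**
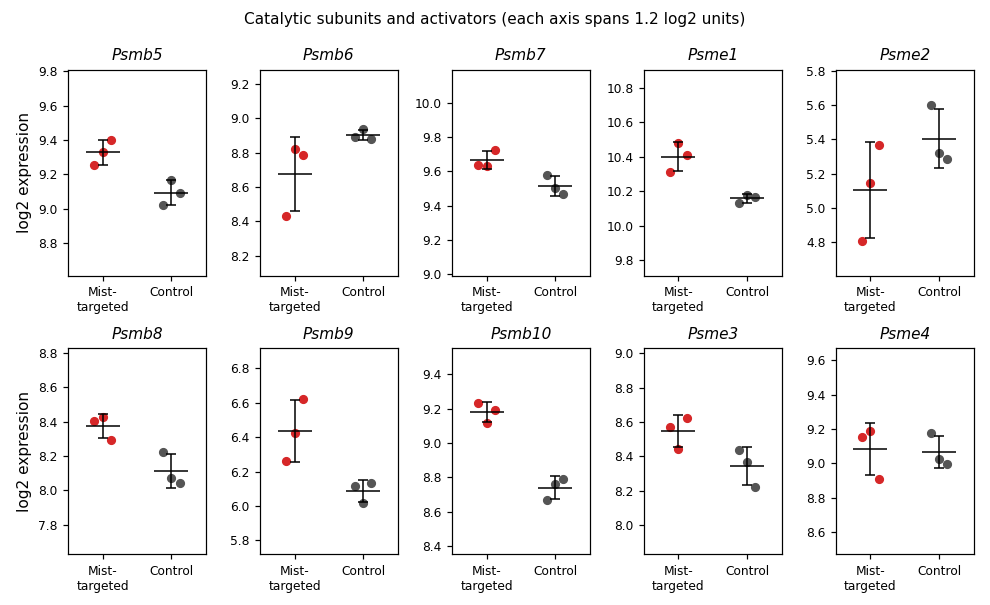
Log2 expression on each array (points) with the mean and SD (bars, n = 3 per group) for constitutive cutting subunits, their inducible counterparts below them, and activator genes, Mist-targeted in red and Control in grey. Psmb5, Psmb7, Psme1, Psme3 and the 3 inducible subunits lie higher on all Mist-targeted arrays, Psmb6 lies lower with 1 array far below the others, and Psme2 and Psme4 overlap.

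In the 19S cap 15 of 17 genes had positive differences, with a median of 0.13. Of its 6 ATPases, which unfold the substrate, 5 were positive (median 0.10, or 0.061 without Control replicate 2). Psmc1 measured 9.98, 9.96 and 9.87 in Mist-targeted cells, against 9.70, 9.65 and 9.80 in Control cells, a difference of 0.22 ± 0.085 (SE, n = 3 per group; limma, adjusted p = 0.45) without overlap. Psmc5 did not overlap either, at 0.14. Psmc6, Psmc3 and Psmc4 differed by 0.12, 0.091 and 0.025. Psmc2 had the lowest difference of the ring, -0.015 ± 0.085. It measured 9.29, 9.32 and 9.17 in Mist-targeted cells, against 9.32, 9.22 and 9.28 in Control cells, and the groups overlap.

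The scaffold and ubiquitin-binding subunits of the base were all positive. Psmd2, one of the large scaffold subunits, measured 9.58, 9.73 and 9.70 in Mist-targeted cells, against 9.50, 9.51 and 9.50 in Control cells (0.17 ± 0.082; limma, adjusted p = 0.59). The Control arrays had an SD of 0.0079, and all Mist-targeted values lay above them. Psmd1, the other large scaffold, differed by 0.13, and Psmd4, a ubiquitin receptor, measured 8.91, 9.09 and 8.98 in Mist-targeted cells, against 8.95, 8.98 and 8.77 in Control cells (0.092 ± 0.098), with overlap; without Control replicate 3 the difference was 0.026 and without Mist-targeted replicate 2 it was 0.045.

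The lid, which holds the enzyme that removes ubiquitin chains, had 7 positive differences and 1 negative among 8 genes, with a median of 0.14. Psmd3 had the highest, with 8.16, 8.20 and 8.55 in Mist-targeted cells, against 7.98, 7.96 and 8.15 in Control cells (0.28 ± 0.12; limma, adjusted p = 0.54). The groups stand apart by a narrow margin, and without Mist-targeted replicate 3, which is far above the others, the difference was 0.16. Psmd14, the deubiquitinating enzyme itself, differed by 0.20 ± 0.12 and Psmd7, its structural partner in the lid, by 0.23 ± 0.10, both with overlapping groups. Psmd12, Psmd6, Psmd13 and Psmd11 lay between 0.085 and 0.14. Psmd8 was the exception: it measured 10.706, 10.735 and 10.853 in Mist-targeted cells, against 10.996, 10.985 and 10.975 in Control cells, a difference of -0.22 ± 0.082 (limma, adjusted p = 0.43). Every Mist-targeted array lay below every Control array, and the difference stayed between -0.26 and -0.19 when each array was left out in turn.

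**Figure D4:**
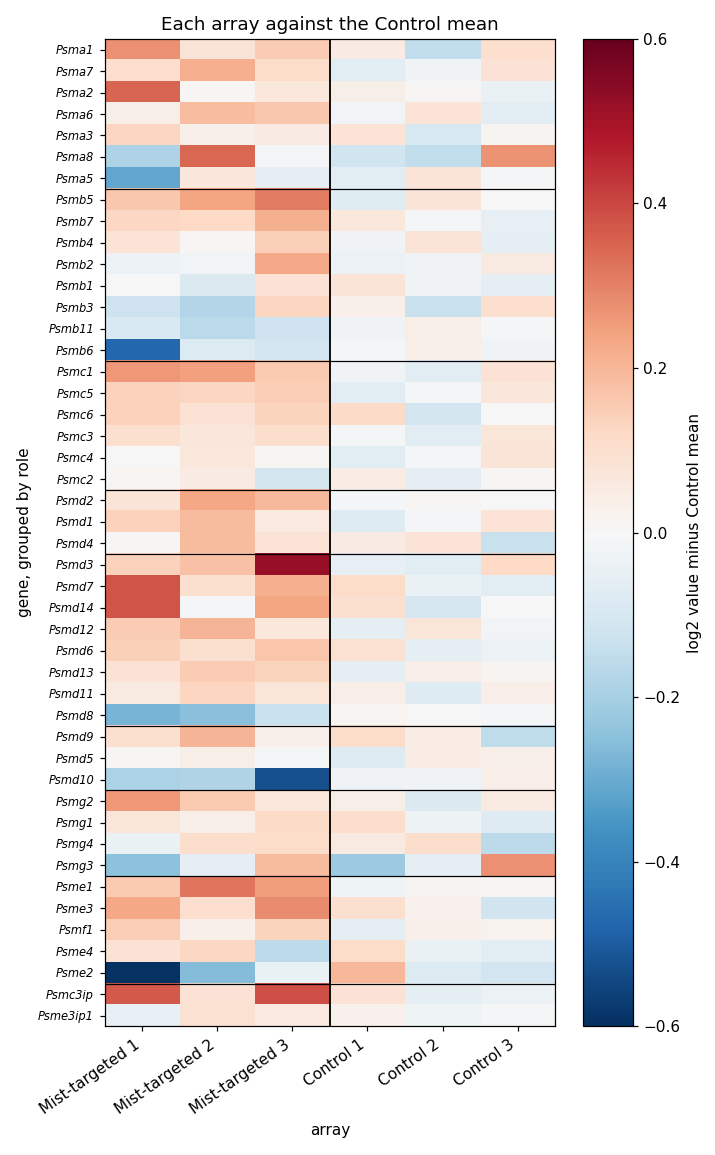
Log2 value of each gene on each array minus the mean of the Control arrays (colour, red above and blue below), genes in rows grouped by role and arrays in columns. The Mist-targeted columns are mostly pale red in the alpha ring and the cap and mixed in the beta ring, and Psmb6, Psmb11, Psmd8, Psmd10 and Psme2 are blue on all 3 Mist-targeted arrays.

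Among the chaperones that assemble the base of the cap, Psmd10 had the lowest difference of all 46 genes. It encodes gankyrin, which is also known to bind the retinoblastoma protein. It measured 8.86, 8.87 and 8.53 in Mist-targeted cells, against 9.03, 9.03 and 9.09 in Control cells, a difference of -0.30 ± 0.11 (1.23-fold lower; limma, adjusted p = 0.44). The groups do not overlap, and without Mist-targeted replicate 3, the lowest array, the difference was -0.18. Psmd9, another chaperone of the base, measured 6.30, 6.40 and 6.23 in Mist-targeted cells, against 6.31, 6.25 and 6.05 in Control cells (0.11 ± 0.10, or 0.033 without Control replicate 3 and 0.063 without Mist-targeted replicate 2), and Psmd5 differed by 0.010. The chaperones of the core lay on both sides of 0, with 3 positive differences of 4. Psmg2, which pairs with Psmg1 to build the alpha ring, measured 8.38, 8.27 and 8.18 in Mist-targeted cells, against 8.15, 8.03 and 8.17 in Control cells (0.16 ± 0.092; limma, adjusted p = 0.66), with the groups just apart. Psmg1 and Psmg4 differed by 0.074 and 0.058. Psmg3, the partner of Psmg4, measured 5.55, 5.75 and 5.99 in Mist-targeted cells, against 5.58, 5.74 and 6.07 in Control cells (-0.036 ± 0.16); its arrays spread more within groups than between them.

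The activators that can cap the core in place of the 19S particle differed among themselves. Psme1 encodes one of the paired subunits of PA28, the activator that interferon induces, and had the smallest p of all members. It measured 10.31, 10.48 and 10.41 in Mist-targeted cells, against 10.13, 10.18 and 10.17 in Control cells. No Control array reached the lowest Mist-targeted one, and the difference was 0.24 ± 0.084 (1.18-fold; limma, adjusted p = 0.38). Psme2 encodes the other PA28 subunit, and its own probe set read 4.809, 5.143 and 5.364 on Mist-targeted arrays, against 5.601, 5.319 and 5.287 on Control arrays (-0.30 ± 0.16; limma, adjusted p = 0.63). The groups overlap, Mist-targeted replicate 1 was the lowest array, and without it the difference was -0.15. A brighter probe set that the annotation gives to Psme2 and 2 other genes differed by 0.27 ± 0.13, so the sign for Psme2 is not settled. Psme3, the nuclear activator PA28 gamma, measured 8.57, 8.44 and 8.62 in Mist-targeted cells, against 8.44, 8.37 and 8.22 in Control cells (0.21 ± 0.097; limma, adjusted p = 0.57), just without overlap. Psme4, the activator PA200, measured 9.154, 9.190 and 8.908 in Mist-targeted cells, against 9.175, 9.029 and 8.997 in Control cells (0.017 ± 0.11), with overlap. Psmf1, the inhibitor PI31, measured 7.47, 7.35 and 7.45 in Mist-targeted cells, against 7.27, 7.35 and 7.34 in Control cells (0.10 ± 0.082), with 1 Mist-targeted array among the Control values.

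Of the genes that match only by name, Psmc3ip, which acts in meiotic recombination, measured 6.49, 6.21 and 6.51 in Mist-targeted cells, against 6.21, 6.07 and 6.09 in Control cells (0.28 ± 0.11; limma, adjusted p = 0.45). Psme3ip1, which encodes a protein that binds the Psme3 product, measured 9.09, 9.23 and 9.20 in Mist-targeted cells, against 9.17, 9.12 and 9.13 in Control cells (0.036 ± 0.082). Leaving both out gave 35 positive differences of 44 and the same median of 0.098, with 0 called and 5 at an unadjusted p under 0.05.

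Genes that work with the proteasome were read from further lists, and none of their members passed the test. Of 12 partners of the proteasome 10 were measured, 7 with positive and 3 with negative differences (median 0.028). Uchl5, a deubiquitinating enzyme of the cap, measured 11.12, 11.03 and 11.03 in Mist-targeted cells, against 10.78, 10.67 and 10.78 in Control cells (0.32 ± 0.083; limma, adjusted p = 0.22). Zfand5, which encodes a protein known to stimulate the proteasome in wasting muscle, measured 8.48, 8.48 and 8.52 in Mist-targeted cells, against 8.98, 8.95 and 8.66 in Control cells (-0.37 ± 0.11; limma, adjusted p = 0.26). Neither gene's groups overlap, but Uchl5 and Zfand5 were named for the smallest p of their list. The groups of 5 of the 10 measured partners did overlap. Of all genes, 9.99% were higher and 9.97% lower on every Mist-targeted array, or 20.7% and 18.9% of those with a mean log2 value over 8. Among shuttles that bring ubiquitinated proteins to the proteasome and the segregase Vcp with its cofactors, 7 of 9 were measured, 6 of them positive (median 0.027). The ubiquilins Ubqln4 and Ubqln2 differed by 0.42 ± 0.14 (limma, adjusted p = 0.38) and 0.26 ± 0.12 (adjusted p = 0.55). Of the regulators of proteasome genes 3 of 4 were measured, and all 3 had negative differences (median -0.18), as did 47.8% of all genes; none passed, and Nfe2l2 had overlapping groups at -0.034 ± 0.082 (limma, adjusted p = 0.95). Nfe2l1 measured 7.39, 7.39 and 7.47 in Mist-targeted cells, against 7.72, 7.82 and 7.81 in Control cells, without overlap (-0.37 ± 0.081; limma, adjusted p = 0.16). Ngly1, whose enzyme processes the Nfe2l1 product, measured 7.08, 7.09 and 7.06 in Mist-targeted cells, against 7.36, 7.32 and 7.10 in Control cells (-0.18 ± 0.096; limma, adjusted p = 0.62). Of the ubiquitin genes and activating enzymes 1 of 6 was measured, Uba6, at 0.044 ± 0.13 (limma, adjusted p = 0.96).

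**Figure D5:**
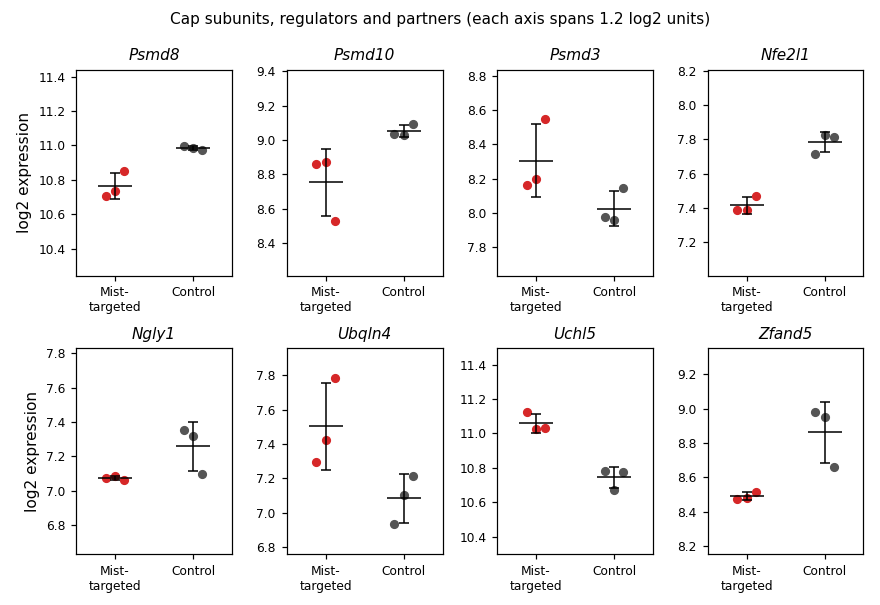
Log2 expression on each array (points) with the mean and SD (bars, n = 3 per group) for cap and chaperone genes and for partners and regulators, Mist-targeted in red and Control in grey. Psmd8, Psmd10, Nfe2l1, Ngly1 and Zfand5 lie lower and Psmd3, Ubqln4 and Uchl5 higher on all Mist-targeted arrays. None passes an adjusted p under 0.05. Of all genes, 9.97% were lower and 9.99% higher on all Mist-targeted arrays, or 18.9% and 20.7% of those with a mean log2 value over 8. The groups overlapped for 5 of 10 measured partners and 4 of 7 measured shuttle and segregase genes, which are not plotted.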

How the data were processed

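RNA from 3 Mist-targeted and 3 Control samples of RAW 264.7 cells was measured on arrays, 1 per sample. The authors deposited log2 expression values; per the submitters' processing notes RMA and Partek were used, with no version or setting stated. Such processing gives the arrays a common distribution, which would reduce a change of most transcripts. Per the labels' protocols, 5 µg of total RNA was labelled with biotin. Values were used as deposited. The number of arrays limits the precision.

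Of 41345 probe sets, 23521 carried 1 gene symbol in the platform annotation, 1814 several, and 16010 were not listed. All were fitted on R 4.3.3 by limma 3.58.1, in a two-sided moderated test (lmFit, eBayes) with the GapmeR group as the single term, and an adjusted p (Benjamini-Hochberg over all probe sets) under 0.05 was a call. The fit was tested on simulated data, with planted differences larger than any among the members. That test gives no measure of how well differences of the members' size are found. Ratios of subunits were tested by exact permutation, adjusted over 3 pairs. Promoters came from RefSeq, build GRCm38.p6. Tables were made with pandas 2.3.3 (Python 3.11.15) and plots with matplotlib 3.10.9.

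The members and lists were chosen with earlier results of these data known. Values on every array were given for Psmb5, Psmb6, Psmb7, the Psme genes and Psmf1, and in each role for the genes with the highest and lowest difference. From the further lists, the members past the threshold or else the 2 with the smallest p were named. Replicate numbers are shared by the groups, and same-numbered arrays deviated together with correlations of 0.20, 0.096 and 0.033. Unlike-numbered arrays gave -0.15 to 0.060, and each Mist-targeted replicate correlated best with the Control array of its own number. The main fit did not take same-numbered arrays as pairs, and whether they are pairs is not settled here.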

Additional observations from a re-analysis of the deposited data

How the results depend on the processing

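The count of 0 proteasome genes called held under all 15 alternatives (limma throughout), with 2 to 11 of them at an unadjusted p under 0.05. Their median difference lay between 0.091 (median centring) and 0.109 (without Control replicate 3); leaving out single arrays gave 0.099 to 0.109, and the 44 proteasome genes alone, chosen after seeing the data, gave 0.098. The number of probe sets called over the whole table moved far more. It was 105, and became 0 with the replicate block (4368 at an unadjusted p under 0.05), 0 in an ordinary linear model without moderation (4106 unadjusted), 287 with trend and robust moderation, 161 without the dimmest 40% of probe sets, and 721 when listed probe sets alone were tested. Single arrays mattered, with 15, 40 and 4 calls after dropping Mist-targeted replicate 1, 2 or 3 and 10, 2 and 14 after dropping Control replicate 1, 2 or 3; the cause was not tested. With the replicate block 0 proteasome genes were called and 7 had an unadjusted p under 0.05. Each Mist-targeted replicate correlated best with the Control array of its own number. Control replicate 3, in turn, correlated better with Mist-targeted replicate 2 (0.060) than with its own number (0.033). Leaving out single arrays, alternatives added after seeing the data for these ratios, gave -0.033 to 0.12 for Psmb8 over Psmb5, 0.52 to 0.65 for Psmb9 over Psmb6 and 0.22 to 0.34 for Psmb10 over Psmb7. Of the 22 genes named with values on every array, 4 (Psma5, Psmc2, Psme4 and Psmg3) changed sign under some alternative, all with differences that passed no test.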

Other observations

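Some probe sets of these genes were not used for the values above, because the annotation gives them to several genes or because a brighter probe set stood for the gene. Psma4, an alpha subunit gene, is read by 2 probe sets that are also annotated to AY074887. The brighter measured 9.26, 9.36 and 9.36 in Mist-targeted cells, against 9.16, 9.02 and 9.21 in Control cells, with no overlap (0.20 ± 0.088, SE; limma, adjusted p = 0.53), and the dimmer differed by 0.12 ± 0.11.

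Second probe sets did not always share the sign of the first. Psma5 differed by 0.30 ± 0.17 at its second probe set and Psmc2 by -0.18 ± 0.16, while Psmg2 differed by 0.043 ± 0.092. With the mean of both probe sets for each gene, Psma5 differed by 0.098, Psmc2 by -0.097 and Psmg2 by 0.10. A probe set annotated to Armc9 and Psmd1 differed by -0.15 ± 0.14, against 0.13 at the one annotated to Psmd1 alone. The groups overlapped at each of the second probe sets and at the one annotated to Armc9 and Psmd1.

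Replicates of the proteasome genes were closer to each other than those of all genes. Against genes with a mean log2 value over 8 they stood out little. The median SE of the difference was 0.087 for the proteasome genes, 0.090 for those brighter genes and 0.102 for all genes. The median SD within a group was 0.081 on Mist-targeted and 0.074 on Control arrays over the 46 genes, against 0.111 and 0.0997 over all genes.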
